A study of Mus musculus with 6 samples.

Results

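The hard keratins are the cysteine-rich keratins of hair, nail and the filiform papillae of the tongue. 10 mouse genes of this kind were followed here: the type I genes Krt32, Krt33a, Krt33b, Krt34, Krt35 and Krt36, and the type II genes Krt81, Krt84, Krt85 and Krt86. Their probes were taken as all non-control probes that carry a member's name in the scanner files or whose accession has a member's current symbol. 9 of the 10 genes had a probe of their own by this rule, with 11 probes among them of 41174 on the array. All 11 were bright enough to be tested, among 30505 tested probes that stand for 20820 genes. Krt81 had none of its own.

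RNA of adult C57BL/6J esophageal epithelium was hybridised to 6 two-colour arrays, in Cy5, together with a common reference RNA from 11 mouse cell lines in Cy3. 3 arrays bear the label wild type and 3 the label of K5Cre;Pax9 loxP/loxP mice, in which the keratin 5 promoter drives Cre to delete Pax9, a paired-box transcription factor. Replicates are labelled as biological, while the labels neither say whether the wild type mice carried Cre nor name the deleted exons. The wild type arrays shared 1 slide and the knockout arrays another, so slide and genotype cannot be told apart in any comparison below.

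Keratins build intermediate filaments only as pairs of a type I (acidic) and a type II (basic) chain. In mouse the type I genes lie together on chromosome 11 and the type II genes on chromosome 15, with the hard keratins next to each other inside each cluster. The soft keratins Krt5, Krt14, Krt4 and Krt13 form the filaments of the esophageal lining, whereas hard keratins are known from the hair shaft, where keratin-associated proteins crosslink them. Krt36 and Krt84 are also keratins of the filiform papillae of the tongue. Hoxc13, a homeobox factor, is known to act on hair keratin genes.

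5 of the 10 genes had an upstream sequence in the RefSeq table used here (GRCm38.p6): Krt32, Krt33b, Krt34, Krt36 and Krt84. The 250 bases before the start are printed for Krt32 and Krt36, whose probes passed the test as described below, and for their neighbour Krt34, whose probe did not. Capitals mark matches, on either strand, to TATAAA (the box of core promoters that binds the general transcription machinery), CTTTGA (a core read by LEF and TCF factors), TAATTG (a core read by Msx and Dlx homeobox factors) and TTTATG (a core of the kind read by Hoxc13, added after the windows were read). The windows lie at chr11:100088270-100088519 for Krt32, chr11:100105627-100105876 for Krt36 and chr11:100041555-100041804 for Krt34, all on the minus strand.
Krt32: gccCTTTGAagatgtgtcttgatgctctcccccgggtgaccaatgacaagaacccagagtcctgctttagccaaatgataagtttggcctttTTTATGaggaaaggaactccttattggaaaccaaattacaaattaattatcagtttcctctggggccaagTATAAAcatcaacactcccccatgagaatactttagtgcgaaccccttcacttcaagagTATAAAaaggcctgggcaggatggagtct
Krt36: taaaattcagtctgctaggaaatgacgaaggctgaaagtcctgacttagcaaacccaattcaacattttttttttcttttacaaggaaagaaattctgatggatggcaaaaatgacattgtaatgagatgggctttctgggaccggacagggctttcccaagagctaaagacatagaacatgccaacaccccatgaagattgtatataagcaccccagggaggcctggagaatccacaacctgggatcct
Krt34: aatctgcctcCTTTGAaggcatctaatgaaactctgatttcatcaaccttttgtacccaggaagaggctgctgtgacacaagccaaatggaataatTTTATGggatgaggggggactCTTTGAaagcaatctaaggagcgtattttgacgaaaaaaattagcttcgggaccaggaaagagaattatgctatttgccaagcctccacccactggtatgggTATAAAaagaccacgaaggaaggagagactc

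The Krt32 and Krt34 windows shared an arrangement. TATAAA began 29 bases before the start in Krt32, with a further match at 88, and 31 bases before it in Krt34. TTTATG began 158 and 154 bases before it, and CTTTGA 247 and 240 bases before it, with a further match at 133 in Krt34. Krt33b had the same motifs at 47, 159 and 247 bases. Krt36 held none of the 4 motifs in this window, and Krt84 held TATAAA once and TTTATG 5 times. Matches did not overlap each other. Over 32851 windows of the same length, 12.4% held TATAAA, 13.8% CTTTGA, 7.17% TAATTG and 10.8% TTTATG. The letters therefore did not separate Krt32, whose probe passed the test, from Krt34, whose probe did not.

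The targeted gene was read first as a check of the labels. The log2 ratio of sample over reference of the Pax9 probe was 6.28, 6.13 and 5.70 on the wild type arrays against 6.81, 6.78 and 6.72 on the knockout arrays, as labelled. The probe gave no lower value under the knockout label (difference 0.73, SE 0.18, limma adjusted p = 0.071). The groups did not overlap, with every knockout array the higher. In Cy5 alone the difference was 1.13 and passed the threshold of 0.05 (limma adjusted p = 0.0072), and in Cy3 alone it was 0.43 (adjusted p = 0.0045). The deleted exons are unknown here, and if the probe lies outside them its level is no check of the deletion. Groups are therefore called by their labels, and each direction below rests on them.

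4 hard keratin genes rose on the arrays labelled knockout and none fell, of 9 tested: Krt35, Krt32, Krt36 and Krt33a. The threshold was an adjusted p of 0.05 in limma over all tested probes, which 4.84% of all tested genes passed, 2.83% being higher and 2% lower. The median difference over the 9 genes was 0.79 on the log2 scale, with 6 of 9 above 0, against a median of 0.01 over all tested genes. All 4 are type I genes: 4 of 6 member genes on chromosome 11 passed, and 0 of 3 with a probe on chromosome 15. With the replicate number as a block 5 of 9 passed, Krt33b being added, against 8.2% of all genes. At an unadjusted p under 0.05 there were 5 higher and 0 lower, against 24.7% of all genes in either direction. The scanner program's own ratio gave 3 higher and 0 lower, without Krt32, against 302 higher and 269 lower of 20820 genes in all. 8 of the 11 probes had groups that did not overlap, all of them higher on the arrays labelled knockout, while of all probes measured on the 6 arrays 15.5% were separated as higher and 14.9% as lower. The counts of member genes and probes in this paragraph are descriptions only. The probe of Krt33a, the dimmer probe of Krt33b and the probe of Krt85 entered the test only through the arrays labelled knockout, where they were higher. The probes of Krt34 and Krt86 entered it only through the arrays labelled wild type. Of the 5 member genes well above background on all 6 arrays 3 passed (Krt32, Krt35 and Krt36), against 558 of 17410 genes in all.

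**Figure D1:**
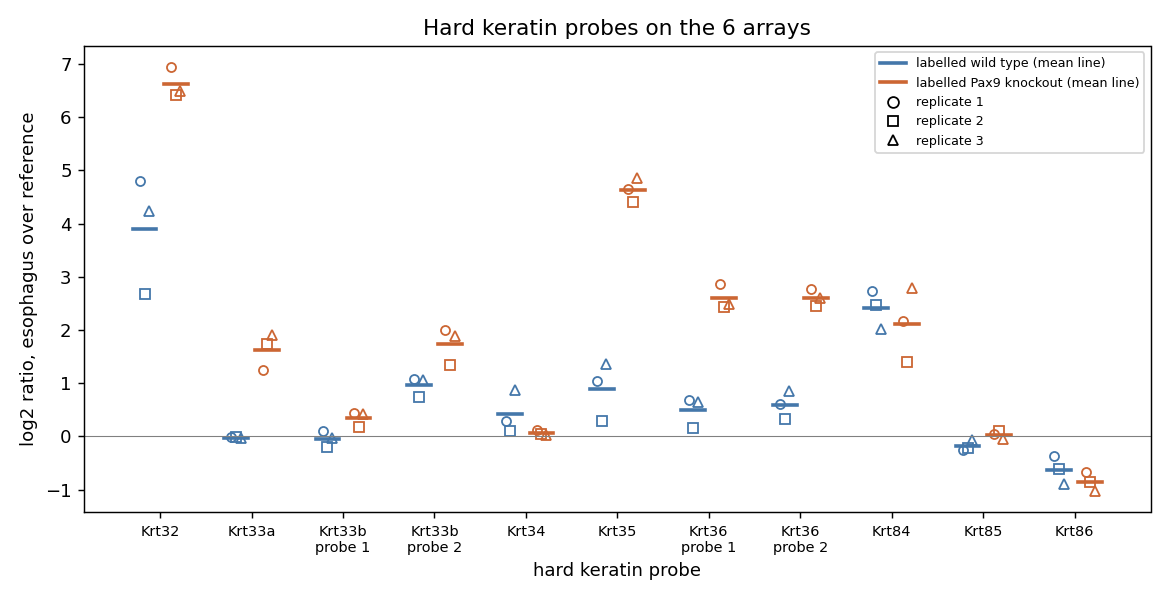
Log2 ratio of esophagus over reference RNA for the 11 hard keratin probes on each of 6 arrays, with blue for arrays labelled wild type, orange for arrays labelled Pax9 knockout, a line at each mean over 3 arrays and a symbol for each replicate number. Krt32, Krt33a, Krt35 and both Krt36 probes stand apart between the groups, while the groups of Krt34, Krt84 and Krt86 overlap.

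Krt35, a type I keratin made early in the forming hair shaft, showed the largest rise among the members in the main setting. Its probe (chromosome 11, 99953539 to 99953598, mm9) had log2 ratios of 1.04, 0.30 and 1.37 on wild type replicates 1, 2 and 3 against 4.66, 4.41 and 4.85 on knockout replicates 1, 2 and 3. Every knockout array lay far above every wild type array. The means were 0.90 ± 0.55 and 4.64 ± 0.22 (SD, n = 3 each). The difference of 3.74 (SE 0.28, limma adjusted p = 0.0038) is a 13.4-fold change of the ratio, the 7th largest rise of 20820 genes. In Cy5, signals after background subtraction were 54.2, 34.9 and 135.4 against 1366.6, 2502.5 and 2872.9, so the esophagus channel showed the separation by itself. In Cy5 alone Krt32 had a larger difference (5.87 against 3.80), and with the scanner program's ratio Krt33a did (3.52 against 3.17). Krt35 passed in all 19 alternative settings run, with differences of 2.84 to 3.97, including each setting that left out 1 array.

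Krt32, a type I keratin of the hair cuticle, rose as well, with a wide spread among the arrays labelled wild type. Its probe (chromosome 11, 99942171 to 99942199, mm9, the position the files give) had log2 ratios of 4.80, 2.67 and 4.24 on the arrays labelled wild type and of 6.94, 6.41 and 6.50 on those labelled knockout. The groups did not overlap, and replicate 2 labelled wild type was well below the other arrays of its group. The means were 3.91 ± 1.11 and 6.62 ± 0.28 (SD, n = 3 each), and the difference was 2.71 (SE 0.51, limma adjusted p = 0.0368), the 32nd largest rise. Its Cy5 signals were 799.9, 216.5 and 1435.5 on the arrays labelled wild type. They were 51196.4, 54088.6 and 68977.2 on those labelled knockout, the lowest being 35.7 times the highest wild type signal.

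The reference channel of the Krt32 probe differed between the groups too. Cy3 signals were 55.9, 27.7 and 64.6 on the arrays labelled wild type against 774.7, 992 and 1141.3 on the knockout arrays, although the reference RNA is given as common to all arrays. The Krt32 difference was 5.87 in Cy5 by itself (limma adjusted p = 0.00246) and 3.36 in Cy3 by itself (adjusted p = 1.1e-05). With the log ratio that the scanner program had computed it was 0.85 and missed the threshold (adjusted p = 0.359). The call was also lost without replicate 1 labelled wild type (3.16, adjusted p = 0.0643), without wild type replicate 3 (2.88, 0.06), and without knockout replicate 1 (2.55, 0.111), 2 (2.82, 0.0671) or 3 (2.77, 0.142). What part the reference signal has in the Krt32 ratio was not tested.

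Krt36, a keratin of the filiform papillae, was measured by 2 probes that gave like values. The brighter probe (chromosome 11, 99963577 to 99963636, mm9) had log2 ratios of 0.61, 0.32 and 0.85 on the arrays labelled wild type and of 2.77, 2.45 and 2.60 on those labelled knockout. The other (99963326 to 99963357) had 0.69, 0.17 and 0.65 against 2.86, 2.43 and 2.49. On both probes the groups stood apart by more than the whole spread within either group. The brighter probe rose by 2.01 (SE 0.18, limma adjusted p = 0.0076) and the other by 2.09 (SE 0.21, adjusted p = 0.0084), about a 4.04-fold and a 4.26-fold change of the ratio. Cy5 signals of the brighter probe were 41.2, 31.6 and 103.9 against 443.3, 430.8 and 484, while its Cy3 signals were 60.6 to 72.1 against 84.6 to 100.6. Without replicate 3 labelled knockout the difference was 2.02 and missed the threshold (adjusted p = 0.0537), and it passed in the other 18 settings.

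Krt33a, a type I keratin of the hair cortex, was not well above background in Cy5 on any array labelled wild type and was on all 3 labelled knockout. Its probe (chromosome 11, 99872578 to 99872637, mm9) had log2 ratios of -0.01, -0.01 and -0.03 on the arrays labelled wild type and of 1.25, 1.73 and 1.91 on those labelled knockout. The wild type values lay at the floor and have no order, and every knockout value was above them. The gene rose by 1.65 (SE 0.19, limma adjusted p = 0.0119). Cy5 signals were 5.2, 2.6 and 8.9 against 102.1, 174 and 183.5. Because the wild type level is below what the array measures well, no fold is exact: it was 3.30 between the normalized Cy5 means and 3.14 in the fitted ratio. Both groups were read in Cy5, since dyes were not swapped, but on different slides. Over the settings the difference ran from 0.91 with median centring of the arrays in place of loess, a 1.88-fold change that missed the threshold (adjusted p = 0.166), to 3.52 with the scanner program's ratio. Krt33a also missed the threshold without wild type replicate 1 (1.65, adjusted p = 0.0626) and without knockout replicate 3 (1.51, adjusted p = 0.0649).

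Krt33b, the neighbouring cortex keratin, had 2 probes of different brightness. The brighter one (chromosome 11, 99887866 to 99888804, mm9) had log2 ratios of 1.08, 0.74 and 1.06 on the arrays labelled wild type and of 2.00, 1.34 and 1.89 on those labelled knockout. The groups did not overlap. The difference of 0.79 (SE 0.22) did not reach significance in limma (adjusted p = 0.0866) and did so with the replicate number as a block (adjusted p = 0.0386) and without knockout replicate 2 (0.99, adjusted p = 0.0495). Both channels of this probe were higher on the arrays labelled knockout: Cy5 signals were 80.9, 78.7 and 136.2 against 630.6, 408.7 and 709.8, and Cy3 signals 96.5, 100 and 71.9 against 322, 283.3 and 349.4. With Cy5 alone the difference was 1.69 (adjusted p = 0.00847), and with the scanner program's ratio it was -0.04 (adjusted p = 0.971), so the sign of the Krt33b ratio is not settled across settings.

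The dimmer Krt33b probe (99885054 to 99885113) was not well above background on any array labelled wild type. Its log2 ratios were 0.10, -0.20 and -0.04 there and 0.43, 0.18 and 0.42 on the arrays labelled knockout. The groups did not overlap, but the values lay near the floor on both sides. The difference of 0.39 (SE 0.15, limma adjusted p = 0.191) missed the threshold. The fitted ratio gave a 1.31-fold change, which is not exact with the wild type arrays below background, and in Cy5 alone the difference was 0.68.

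Krt34, also a cortex keratin and the gene next to Krt33b among the tested genes, was well above background in Cy5 on all 3 arrays labelled wild type and on none labelled knockout. Its probe (chromosome 11, 99898830 to 99898889, mm9) had log2 ratios of 0.30, 0.11 and 0.87 on the arrays labelled wild type and of 0.12, 0.05 and 0.03 on those labelled knockout. The groups overlapped, with replicate 3 labelled wild type the only array clearly above the rest. The difference was -0.36 (SE 0.21, limma adjusted p = 0.351). Cy5 signals were 32.1, 33.1 and 117.4 against 9.6, 8.6 and 7.6, and Cy3 signals 76.9, 72.2 and 76.7 against 9, 9.5 and 13.8. The Krt34 difference was -0.75 in Cy5 alone (adjusted p = 0.0215) and -0.83 in Cy3 alone. The fitted ratio gave a 1.28-fold lower level on the arrays labelled knockout and the smallest over settings was 1.09-fold, neither exact with those arrays below background.

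**Figure D2:**
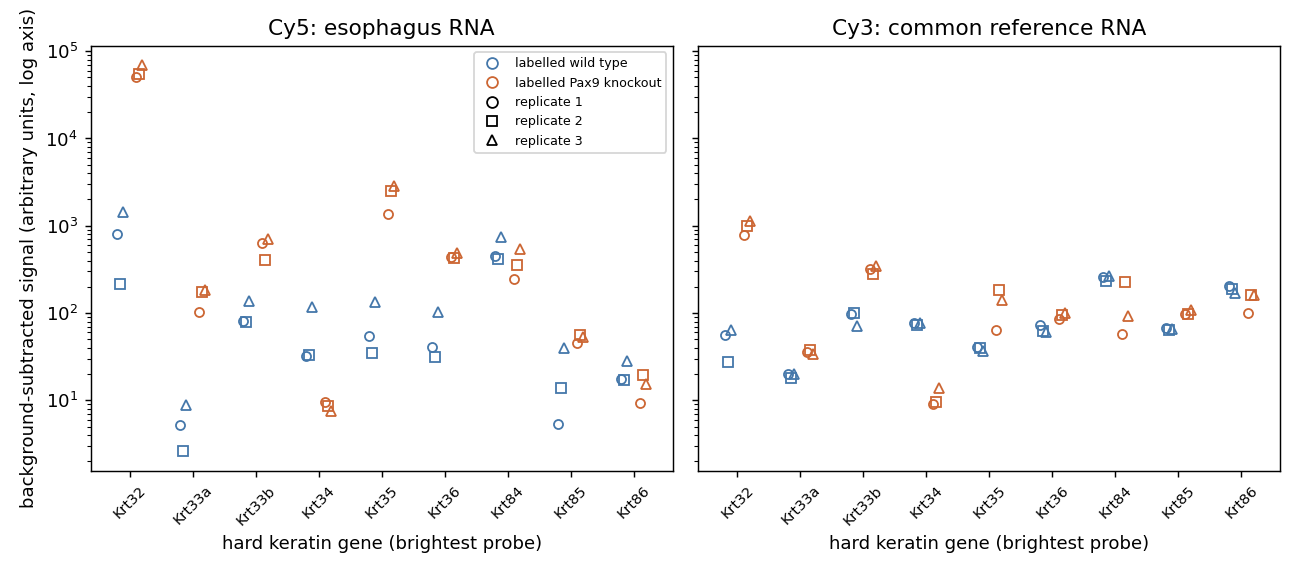
Background-subtracted signal on a logarithmic axis for the brightest probe of each of 9 hard keratin genes, in Cy5 (esophagus RNA, left) and Cy3 (common reference RNA, right), with 3 arrays labelled wild type in blue and 3 labelled knockout in orange. Krt32 and Krt33b are higher and Krt34 is lower on the knockout arrays in both channels, while for Krt35 and Krt36 the gap is far wider in Cy5 than in Cy3.

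Cy3 signals differed between the groups for 10 of the 11 hard keratin probes at an adjusted p of 0.05 in limma, and for 54.8% of all tested probes. Such differences were mostly small over the array: 3.72% of tested probes differed by at least 1 log2 unit in Cy3. Among the members Krt32 (3.36) and the brighter Krt33b probe (1.50) went beyond that size. With Cy5 alone, where no reference enters, 5 member genes were higher (Krt32, Krt33a, Krt33b, Krt35 and Krt36) and 2 were lower (Krt34 and Krt84) of 9. That reading calls 14.7% of all genes higher and 13.9% lower, so its count stands on a wider background than the count from ratios.

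No type II member passed the test in limma, at an unadjusted p under 0.05 or with the replicate block. Krt84, the type II keratin of the filiform papillae, had log2 ratios of 2.74, 2.46 and 2.02 on the arrays labelled wild type and of 2.16, 1.39 and 2.79 on those labelled knockout (chromosome 15, 101355699 to 101355758, mm9). The groups overlapped, since the knockout arrays held both the highest and the lowest value. The difference was -0.29 (SE 0.36, limma adjusted p = 0.672), and it was 0.07 without knockout replicate 2. In Cy5 alone it was -0.88 (adjusted p = 0.0417), with Cy5 signals of 412.4 to 745.2 against 243.4 to 545.9. Krt84 and Krt36, which are both papilla keratins, thus differed in outcome: Krt36 rose and Krt84 did not pass the test, a difference between genes that was not itself tested.

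Krt85, the type II keratin of the early hair shaft, lay near the floor on all arrays. Its probe (chromosome 15, 101346996 to 101347055, mm9, named as in the files) had log2 ratios of -0.25, -0.21 and -0.06 on the arrays labelled wild type and of 0.04, 0.10 and -0.04 on those labelled knockout. The groups did not overlap but nearly touched. The difference was 0.21 (SE 0.14, limma adjusted p = 0.407), and it turned to -0.22 with median centring. Cy5 signals were 5.4 to 39.8 against 45.5 to 56.1, and well above background on 2 of 3 arrays labelled wild type and 3 of 3 labelled knockout.

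Krt86, a type II cortex keratin, had log2 ratios of -0.37, -0.62 and -0.89 on the arrays labelled wild type and of -0.67, -0.85 and -1.03 on those labelled knockout (chromosome 15, 101307291 to 101307350, mm9). The groups overlapped. The difference was -0.22 (SE 0.19, limma adjusted p = 0.51), and Cy5 alone gave -0.23 (adjusted p = 0.279). Cy5 signals were 17.3 to 28.4 against 9.4 to 19.5.

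The Krt86 probe does not read Krt86 alone by its annotation. The files list for it RefSeq accessions of Krt81 and Krt86, and for a probe they name Krt83 those of Krt81, Krt86 and Krt87. The latter probe is called Krt87 here. Krt81 is thus covered only together with its close relatives, and has no value of its own. The 60-base sequences of both probes are shown because they join end to end in a stretch that both contain, given in capitals.
Krt86: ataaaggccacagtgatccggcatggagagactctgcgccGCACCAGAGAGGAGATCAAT
Krt87: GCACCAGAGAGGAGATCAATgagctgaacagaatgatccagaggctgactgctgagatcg

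The shared run is 20 bases, positions 41 to 60 of the Krt86 probe and 1 to 20 of the Krt87 probe, counted from the 5′ end. The longest run shared by any other pair of hard keratin probes was 10 bases. The Krt87 probe (chromosome 15, 101264040 to 101264099, mm9) had log2 ratios of -0.48, -0.61 and -0.79 on the arrays labelled wild type and of 0.41, -0.14 and 0.30 on those labelled knockout. The groups did not overlap on this probe, while they did on the Krt86 probe. Its difference of 0.82 (SE 0.19) missed the threshold (limma adjusted p = 0.0615) and passed with the replicate number as a block (adjusted p = 0.0474). How the transcripts of Krt81, Krt86 and Krt87 share these signals cannot be told from the 2 probes.

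2 further hard keratins outside the 10 had a tested probe. Krt31, a cortex keratin, had a difference of 0.45 (SE 0.15, limma adjusted p = 0.139) with non-overlapping groups. The Krt31 difference was 0.04 in Cy5 alone (adjusted p = 0.881) and -0.48 in Cy3 alone (adjusted p = 0.0223). With the scanner program's ratio it was 1.83 and passed (adjusted p = 0.0206). Krt82, the type II keratin of the hair cuticle, had log2 ratios of 2.02, 0.66 and 1.91 on the arrays labelled wild type and of 0.59, 0.18 and 0.40 on those labelled knockout. Its groups did not overlap either, and its difference of -1.14 (SE 0.36) missed the threshold (adjusted p = 0.121) and passed with the replicate number as a block (adjusted p = 0.0404). The cuticle keratins Krt32 and Krt82 therefore had differences of opposite sign, of which only that of Krt32 passed without a block.

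**Figure D3:**
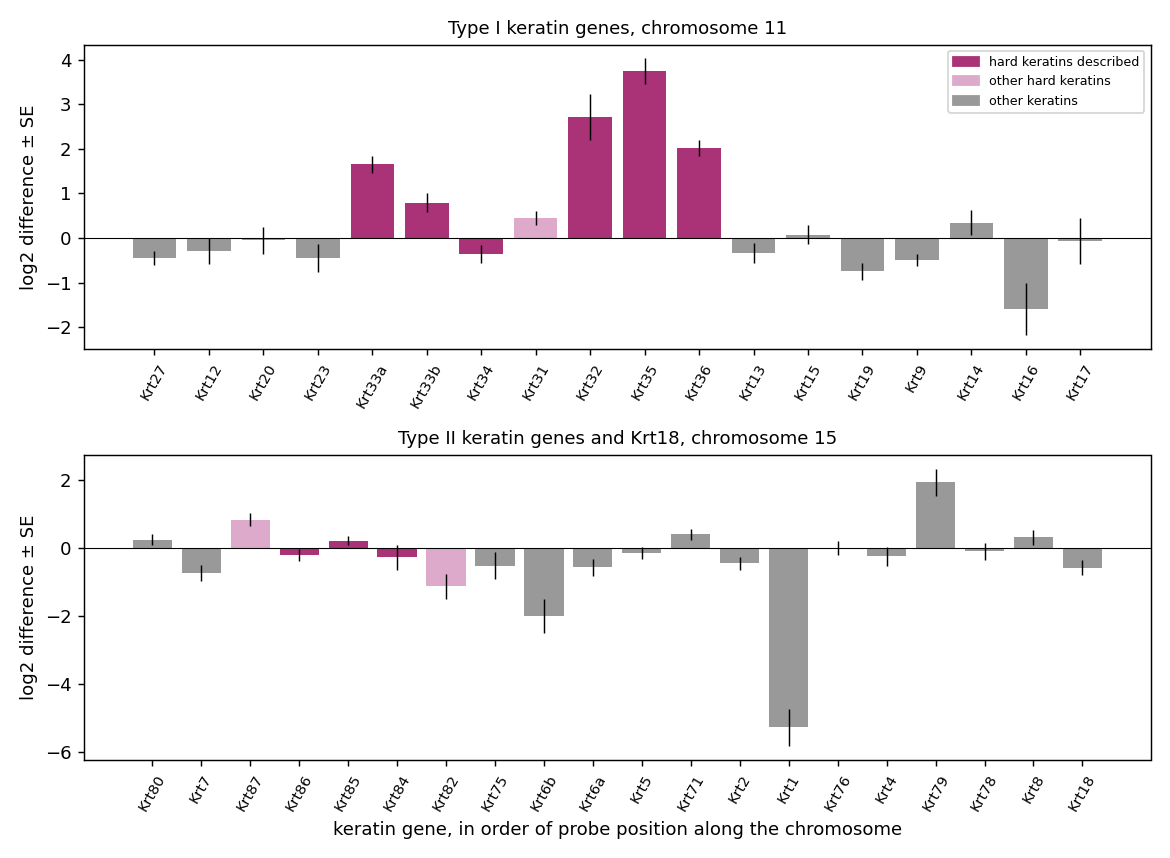
Difference in log2 ratio, arrays labelled knockout minus wild type (n = 3 each), for tested keratin genes of the lists, as bars with the moderated SE. Genes stand in order of probe position, with chromosome 11 in the upper panel and chromosome 15 in the lower panel. Krt10, whose brightest probe has no given position, is not drawn. Krt88, which is in none of the lists, is not drawn either (-0.33, limma adjusted p = 0.201). Among the hard keratins, Krt35 reaches 3.74 and Krt32 2.71, and Krt34 (-0.36) lies between members with differences above 0.

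The hard keratins of chromosome 11 formed an unbroken run of probes between Krt23 and Krt13 among the tested keratins. Along that run the differences were 1.65 for Krt33a, 0.79 for Krt33b, -0.36 for Krt34, 0.45 for Krt31, 2.71 for Krt32, 3.74 for Krt35 and 2.01 for Krt36. The 3 genes with the largest differences in this fit were next to each other. With the scanner program's ratio and the series matrix the 3 largest were Krt33a (3.52), Krt35 (3.17) and Krt36 (2.00), which are not, since Krt32 was at 0.85. Krt13, the differentiation keratin of the esophagus and the next tested gene after Krt36, had a difference of -0.34 (SE 0.22, limma adjusted p = 0.399).

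Soft keratins of the same clusters were counted in the same fit. Of 11 tested type I soft keratins none passed, with a median difference of -0.34, 2 of 11 above 0 and the smallest p-values for Krt10 (-2.31, limma adjusted p = 0.0532), Krt19 (-0.75, 0.0695) and Krt9 (-0.50, 0.076). At an unadjusted p under 0.05, 0 were higher and 4 lower, against 24.7% of all genes in either direction. With the replicate block Krt10 passed (adjusted p = 0.0316), and with the scanner program's ratio 0 did. Both channels of this Krt10 probe were lower on the arrays labelled knockout, by -5.83 in Cy5 alone (limma adjusted p = 0.0039) and -3.08 in Cy3 alone. The other Krt10 probe had a ratio difference of -3.92 (adjusted p = 0.0648) and -9.24 in Cy5 alone (adjusted p = 0.0031). What part the reference signal has in the Krt10 ratio was not tested. Of 14 tested soft keratins of the chromosome 15 cluster, which includes the type I gene Krt18, Krt79 rose (1.91, adjusted p = 0.0468) and Krt1 fell (-5.28, adjusted p = 0.0088). At an unadjusted p under 0.05, 1 was higher and 5 lower, against the same 24.7% of all genes. With the scanner program's ratio Krt1 kept its call (-5.27, adjusted p = 0.0089) and Krt79 lost it (1.03, adjusted p = 0.188). This Krt1 probe lies on the minus strand, and its difference was -9.01 in Cy5 alone and -3.37 in Cy3 alone. A dimmer probe that also bears the name Krt1 is placed on the plus strand and had a difference of -0.03. Whether both read the same transcript was not tested. Next by p in that list was Krt6b (-2.02, adjusted p = 0.0674). The list median was -0.36.

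Among 14 genes listed as regulators of hair keratin genes or the hair shaft, none rose and 1 fell, with a median difference of 0.07. At an unadjusted p under 0.05, 2 were higher (Hoxc13 and Tcf3) and 1 lower (Dlx3), against 24.7% of all genes in either direction. The gene that fell was Dlx3, a distal-less homeobox factor (-1.04, limma adjusted p = 0.033). With the scanner program's ratio Dlx3 lost its call (-0.37, adjusted p = 0.73), and 0 of the 14 passed. Hoxc13 had log2 ratios of -0.83, -1.20 and -1.26 on the arrays labelled wild type and of 0.22, -0.51 and -0.31 on those labelled knockout. Its groups did not overlap, but its difference of 0.90 (SE 0.23) missed the threshold (adjusted p = 0.074) and passed with the replicate number as a block (adjusted p = 0.0284). Hoxc13 was well above background in Cy5 on 1 of 3 wild type arrays and 3 of 3 knockout arrays. Tcf3 came next by p (0.49, limma adjusted p = 0.183). By its current symbol it is an E-protein, so it may not belong in a list of hair regulators.

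Of 43 keratin-associated protein genes on the array, 27 were tested, 4 rose and none fell, with a median difference of 0.19 and 16 of 27 above 0. Over all tested genes 2.83% rose and 2% fell. Krtap3-3 had log2 ratios of 0.47, 0.26 and 0.61 against 2.39, 2.91 and 3.99, a rise of 2.65 (SE 0.38, limma adjusted p = 0.0206). Krtap12-1 had 1.82, 1.33 and 2.53 against 4.62, 3.32 and 4.38, a rise of 2.21 (SE 0.42, adjusted p = 0.0374). In both genes the groups did not overlap. Krtap13-1 rose by 0.85 (adjusted p = 0.0356), with no wild type array well above background, and Krtap9-1 by 0.76 (adjusted p = 0.0446). Krtap3-3 (well above background on 1 of 3 arrays labelled wild type) and Krtap13-1 entered the test only through the arrays labelled knockout. Further genes of the list, such as Krtap4-7, entered it in that way, and some, such as Krtap4-13, only through the arrays labelled wild type. The counts of this list are therefore descriptions only. With the scanner program's ratio Krtap3-3 kept its call (adjusted p = 0.0087), while Krtap12-1 (0.151), Krtap13-1 (0.648) and Krtap9-1 (0.513) lost it.

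Markers of other cell types were read on the same arrays, since RNA of a whole tissue layer cannot tell more cells of a type from more RNA per cell. Of 12 inner root sheath genes, which mark the hair follicle around the shaft, 9 had a probe and 6 were tested. None rose and 2 fell: Gata3 (-3.54, limma adjusted p = 0.0196) and Dlx3, whose call was lost with the scanner program's ratio as given above, while Gata3 kept it (-4.58, adjusted p = 0.0223). At an unadjusted p under 0.05, 0 were higher and 3 lower, against 24.7% of all genes in either direction. The defining genes Krt25 and Krt26 were not well above background on any array. Krt71, another defining gene, was so on 2 of 3 arrays labelled wild type and 3 of 3 labelled knockout, with groups that did not overlap and a difference of 0.38 (adjusted p = 0.218). The summed normalized Cy5 signal of the list was 3004 to 4348 on the arrays labelled wild type against 1255 to 1576 on the knockout arrays. Gata3, Dlx3 and Tchh were the brightest genes of the list on each array labelled wild type, so the sum does not follow its defining keratins. Next by p was Krt27 (-0.44, adjusted p = 0.149). Of 7 melanocyte genes 5 were tested and none passed in limma, with 1 higher and 1 lower at an unadjusted p under 0.05, and 0 with the scanner program's ratio. Tyr was not well above background on any array, and Tyrp1 (0.44, adjusted p = 0.116), Pmel (-0.47, 0.142) and Dct (0.37, 0.243) came first by p. The melanocyte sum was 926 to 969 against 711 to 853.

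Of 5 genes listed for the filiform papilla, 4 were tested and only Krt36 passed; besides Krt84 these hold Krt6a (-0.57, limma adjusted p = 0.223), and Tchhl1 was not well above background on any array. The papilla sum was 9679 to 47998 on the arrays labelled wild type against 3291 to 11560 on the knockout arrays. It follows mainly Krt6a, the brightest gene of the list on each array (Cy5 signals of 18325.2, 3398.2 and 9397 against 1175.1, 2563.6 and 7854.3), while Krt36 went the other way. The sum is therefore no measure of papilla RNA. Markers of squamous epithelium were bright on every array, with a median log2 ratio of 6.45 to 7.11 on those labelled wild type and 6.26 to 6.31 on those labelled knockout. Of these 8 genes Sox2 fell (-1.04, adjusted p = 0.0225), a call lost with the scanner program's ratio (-0.061, adjusted p = 0.958), and Krt13 and Sprr3 (-0.34, adjusted p = 0.51) did not pass. Thyroid markers gave no call among 2 tested (Slc5a5 and Tg, 1 of them lower at an unadjusted p under 0.05). Of 2 tested airway markers the ratio of Scgb3a2 fell (-1.85, limma adjusted p = 0.0121) and Scgb1a1 did not pass. Scgb3a2 kept its call with the scanner program's ratio (-2.96, adjusted p = 0.0046) and lost it in Cy5 alone (-0.52, adjusted p = 0.189). In Cy3 alone it was higher on the arrays labelled knockout (1.54, adjusted p = 1.6e-05). Scgb1a1 was lower in Cy5 alone (-2.32, adjusted p = 0.0216). The part of these other cell types in the keratin differences was not tested.

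Muscle RNA was present on all arrays, with ranges that overlapped between the groups. The median log2 ratio of 7 skeletal muscle genes was 3.24 to 5.93 on the arrays labelled wild type against 4.90 to 6.24 on the knockout arrays, and their summed normalized Cy5 signal 62057 to 626069 against 220935 to 1302020. All 7 differences were above 0, with 1 past the threshold (Myh2 by 1 of its 4 probes, 1.63, limma adjusted p = 0.0402, lost with the scanner program's ratio at 1.46 and 0.0632), and Mylpf (1.47, 0.344) and Acta1 (1.16, 0.404) came next. With the replicate block 3 of the 7 passed. None of 5 smooth muscle genes passed, with or without the block or at an unadjusted p under 0.05, Des, Tagln and Myh11 being first by p. Replicate 2 was the array richest in skeletal muscle signal in each group, with Acta1 signals of 82931 and 354828. Without replicate 2 of both groups, a setting chosen after seeing the data, Krt35 (3.55, adjusted p = 0.0157), Krt36 (1.96, 0.0259) and Krt32 (2.20, 0.0343) passed and Krt33a did not (1.60, 0.056).

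**Figure D4:**
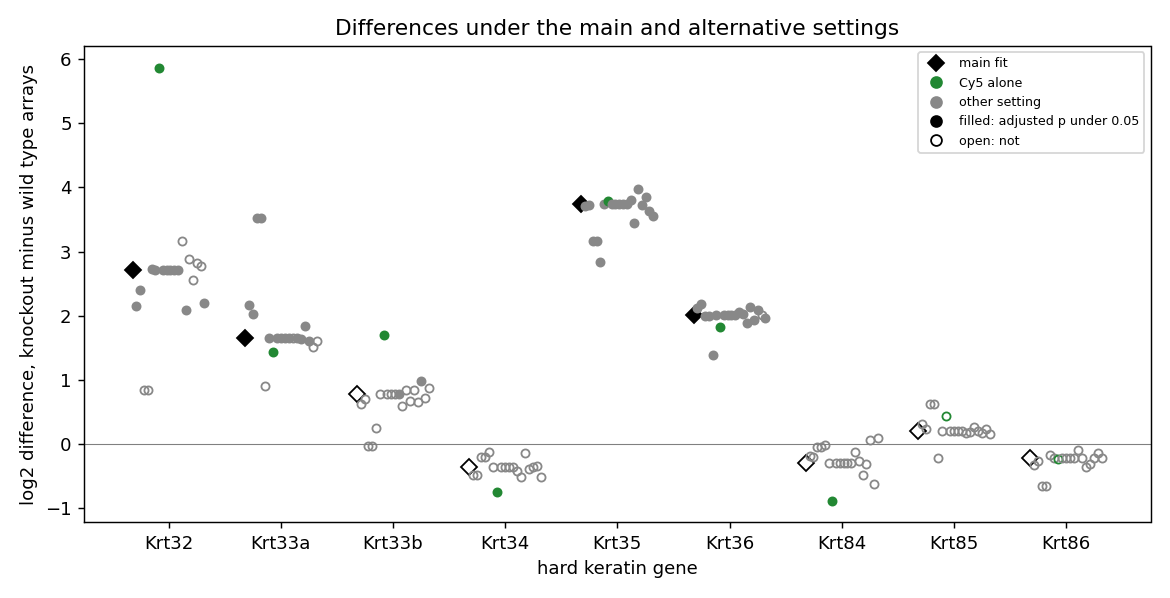
Difference in log2 ratio, arrays labelled knockout minus wild type, for 9 hard keratin genes under the main setting (black diamond), Cy5 alone (green) and the other settings (grey), filled where the limma adjusted p was under 0.05. All Krt35 points are filled and lie between 2.84 and 3.97, whereas the Krt32 points spread from 0.85 to 5.87.

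Deviations of the 9 member genes from their group means are given by array, as a description. On replicate 2 labelled wild type 3 of 9 lay above the group mean, with a median deviation of -0.22 log2 units, and on replicate 2 labelled knockout 3 of 9, with a median of -0.16. On replicate 1 it was 7 of 9 on the wild type array and 8 of 9 on the knockout array (medians 0.12 and 0.05). On replicate 3 it was 6 of 9 on the wild type array and 4 of 9 on the knockout array (medians 0.11 and -0.0092).

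Over the 6 arrays the pattern most like the mean centred profile of the members was that of Crabp2, a cellular retinoic acid binding protein (Pearson r = 0.998), which rose by 1.29 (limma adjusted p = 0.0212). It was followed by Fth1, the ferritin heavy chain (r = 0.998, difference 0.61, adjusted p = 0.0636), Sva (r = 0.997, difference 0.78, adjusted p = 0.0526), Cntn2, a contactin (r = 0.997, difference 0.76, adjusted p = 0.0467), and Olfr745, an olfactory receptor (r = 0.996, difference 1.01, adjusted p = 0.029). These correlations are descriptions over 6 arrays that share slides and groups, and genes that differ between the groups score high in them.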

How the data were processed

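The deposited scanner files hold intensity values of 45018 spots per array in both channels, per the file headers from array design 014868 and Agilent Feature Extraction 10.7.3.1 (9.1 in the submitters' processing notes). They also hold the log10 ratio of Cy5 over Cy3 that the program computed, as deposited by the authors. The deposited series matrix holds log2 values, which correlated with that ratio at -0.993 to -0.996, so its sign was turned. The centring of its columns (medians -0.02 to 0.01) is unknown. Mean signals were corrected with normexp (offset 50) and normalized by loess within arrays. Outlier spots (55 to 164 per array) were left out. Tests covered probes whose Cy5 was well above background on every array of either group. Names were updated through RefSeq (26918 probes by accession, 5899 by symbol or synonym, 8357 kept as in the files); positions are the files' mm9. The brightest tested probe stood for a gene.

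Groups were compared with limma 3.58.1 in R 4.3.3 (lmFit, eBayes, two-sided), with Benjamini-Hochberg adjustment over tested probes. Errors are the SD of 3 arrays and the moderated SE. With 3 arrays a group, exact permutation p-values have a minimum of 0.1. P-values measure only the spread between these samples. Folds are not exact for a probe whose Cy5 stayed near background throughout 1 group. Normalized Cy5 is after loess and Aquantile. Between 67.3% and 77.3% of probes on an array had Cy5 well above background, and the number of arrays limits the precision.

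Members, gene lists and the naming rule (every member probe, called genes and the first 3 by p of each list, the 5 genes most like the members) were chosen with earlier results of these data known. No error rate from simulated data is given here. Deviations from group means correlated at 0.14, 0.49 and 0.32 between arrays of the same replicate number and at -0.47 to 0.16 otherwise. The 0.16 was between wild type replicate 1 and knockout replicate 3, so replicate 1 shows no closer match to its own number. The numbers, which the labels give, were taken as pairs only in the setting with a replicate block, and the main fit has none. Arrays of the same number also share a position on their slides.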

Additional observations from a re-analysis of the deposited data

Results flagged for a closer look

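Signal in the reference channel, which is not part of the comparison of esophagus RNA other than as the denominator of its ratios, differed between the arrays labelled knockout and wild type for most hard keratin probes, although the labels give 1 common reference RNA. The differences in Cy3 alone, knockout minus wild type on the log2 scale, were 3.36 for Krt32, 1.50 and 0.72 for the brighter and dimmer Krt33b probes, and 0.94 for Krt35. They were 0.35 for Krt33a, 0.42 and 0.28 for the Krt36 probes and 0.47 for Krt85. The Cy3 difference was -0.83 for Krt34 and -0.70 for Krt84. For Krt32, Krt33b, Krt34, Krt35, Krt36, Krt33a, Krt84 and Krt85 the sign in Cy3 was the sign in Cy5 alone. The groups lay on different slides, so slide and genotype cannot be told apart here.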

How the results depend on the processing

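Slide and genotype are confounded, and no setting removes that. Krt35 kept its call in all 19 alternatives, Krt36 in 18, Krt33a in 14 of 18 and Krt32 in 12 of 19. Signs turned for Krt33b (-0.036 with the scanner program's ratio and -0.036 with the series matrix), Krt84 (-0.63 to 0.070 on leaving out 1 array, above 0 without knockout replicate 2, and 0.099 without replicate 2 of both groups, a setting chosen after seeing the data) and Krt85 (-0.22 with median centring, which moved the median of all genes to 0.11). Cy5 alone called 7 member genes in place of 4. The members' median difference of 0.79 was 0.25 with median centring, 1.43 with Cy5 alone, 2.01 over the 5 genes above background on all 6 arrays and 0.59 with the mean over probes. The count of all genes called, 1007, was 571 with the scanner program's ratio, 561 with the series matrix, 120 with median centring, 5951 with Cy5 alone, 558 with the filter on all 6 arrays and 324 without replicate 2 of both groups. With the replicate block it was 1707, and 5 member genes passed; Krt33b was the only member whose call the block changed. Leaving out 1 array gave 1 to 4 member genes (1 without knockout replicate 3, 2 without wild type replicate 1), a median of 0.66 to 0.99, and 34 to 826 genes in all, with 34 without knockout replicate 3, 87 and 164 without wild type replicates 1 and 2, and 267 without knockout replicate 1. The cause of these shifts was not tested. Krt33a, Krt34 and the dimmer Krt33b probe lay below background on 1 side, where dim signal leaves no exact fold.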
